A study of Mus musculus with 62 samples.

Results

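Cerebellar RNA of 5 mouse libraries from animals given a melanoma that does not cause cachexia (NCAC) was set against that of 5 libraries from mock-injected animals (mock), both taken 6 weeks (wk) after injection. These 10 libraries were taken by their labels from the 62 libraries of a series that followed the cerebellum at 2, 4, 6 and 8 wk. Earlier results of these data were known when the comparison was chosen. The third arm of the series, animals given a melanoma that causes cachexia (CAC), was used here at 6 wk (5 libraries) beside NCAC. NCAC and mock at 2, 4 and 8 wk (30 libraries) served to ask whether a difference at 6 wk also stood at other times. All animals were females aged 2 months, and no genetic change is named for any arm. The series design gives NCI Ath/nude mice, an athymic strain that lacks most T cells, whereas the sample fields give C57BL6/J, so the strain is uncertain. The sample descriptions and titles gave the arm, because the treatment field names cachectic cells for every library. The labels name neither the non-cachectic melanoma line nor tumour or body weights. Replicates are described as biological, but the labels name no animal for any library, so p-values measure the spread between libraries, which may be technical.

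Cachexia is the loss of muscle and fat that accompanies some tumours, often with raised inflammatory cytokines and glucocorticoids. A tumour that grows without wasting is used to separate the effect of carrying a tumour from that of wasting. The cerebellum holds mostly granule neurons, which excite the Purkinje cells that form its output, together with inhibitory interneurons, Bergmann glia, oligodendrocytes that wrap axons in myelin, and the choroid plexus of the adjoining ventricle.

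The libraries carried the signature of cerebellum. Pcp2, a Purkinje cell gene, averaged 459 ± 26.9 TPM (a length-normalised share of all transcripts) in NCAC and 480.2 ± 21.2 TPM in mock (± SD over 5 libraries per arm, here and below). Calb1, another Purkinje cell gene, averaged 587 ± 17.4 TPM in NCAC and 609 ± 29.4 TPM in mock, and Zic1, a granule cell gene, 520.0 ± 36.1 TPM in NCAC and 557 ± 27.1 TPM in mock. Of the melanoma genes, Tyr was listed at 0 in all 10 libraries, Mlana reached 0.153 TPM in NCAC and was listed at 0 in mock, and Pmel averaged 1.19 ± 0.306 TPM in NCAC and 1.22 ± 0.154 TPM in mock. The 14 genes of the melanocyte and melanoma list, which include S100b and Kit, also expressed in the cerebellum, summed to 1026 to 1172 TPM in NCAC and 1018 to 1079 TPM in mock. Of the T cell genes, Cd3e was listed at 0 in all 5 NCAC libraries and reached 0.0675 TPM in mock. Within each library the 13 mitochondrially encoded genes took 20.9 ± 1.14% of the TPM in NCAC, against 20.6 ± 0.958% in mock (two-sided exact permutation p = 0.611, where the smallest p the design allows is 0.00794). Because TPM scales every library to the same total, sequencing depth is unknown and no counting interval can be given.

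No gene passed the test between NCAC and mock at 6 wk. Limma, fitted on log2(TPM + 1) of all 62 libraries in 12 groups, called 0 of 14399 genes (Benjamini-Hochberg adjusted p under 0.05), and the smallest adjusted p was 0.588. At an unadjusted p under 0.05 there were 1202 genes, 8.35% of those tested, of which 374 (2.6%) were higher in NCAC and 828 (5.75%) lower. The differences behind them were small. Their median size was 0.14 in log2 units, and 26 of the 1202 reached 1.5-fold, 16 higher and 10 lower. The NCAC and mock libraries did not overlap at all in 177 genes (1.23%), with NCAC above mock in 59 (0.41%) and below it in 118 (0.82%). The fit was precise enough to bound most genes on the scale of TPM + 1. For 13586 of them (94.4%) the 95% interval of the difference lay within 1.5-fold in both directions on that scale. The scale understates fold changes of scarce genes, so neither these intervals nor the count of 26 bounds their change in TPM. The split by direction moved with the scaling: 31.1% of the genes at p under 0.05 were higher in TPM, whereas median-of-ratios scaling gave 545 higher and 615 lower genes and quantile normalization 528 higher and 623 lower. The count at p under 0.05 was 525 without NCAC replicate 5, 666 with the mean log2 level of brainstem markers as a covariate and 499 without NCAC replicates 2, 4 and 5, the libraries highest in those markers. It was 1415 without NCAC replicates 3 and 4. A smaller group also widens the intervals, so counts with libraries left out are not like for like. Without these 3 libraries limma called 2 genes, named here after their values were seen: Ppp1r13b at a log2 difference of 0.67 (adjusted p = 0.000458) and Hist1h2al, a histone gene with near-identical copies, at -1.21 (adjusted p = 0.00099), with 2 NCAC libraries remaining. With all libraries no adjusted p was below 0.588, so the genes named below are described by their values.

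**Figure D1:**
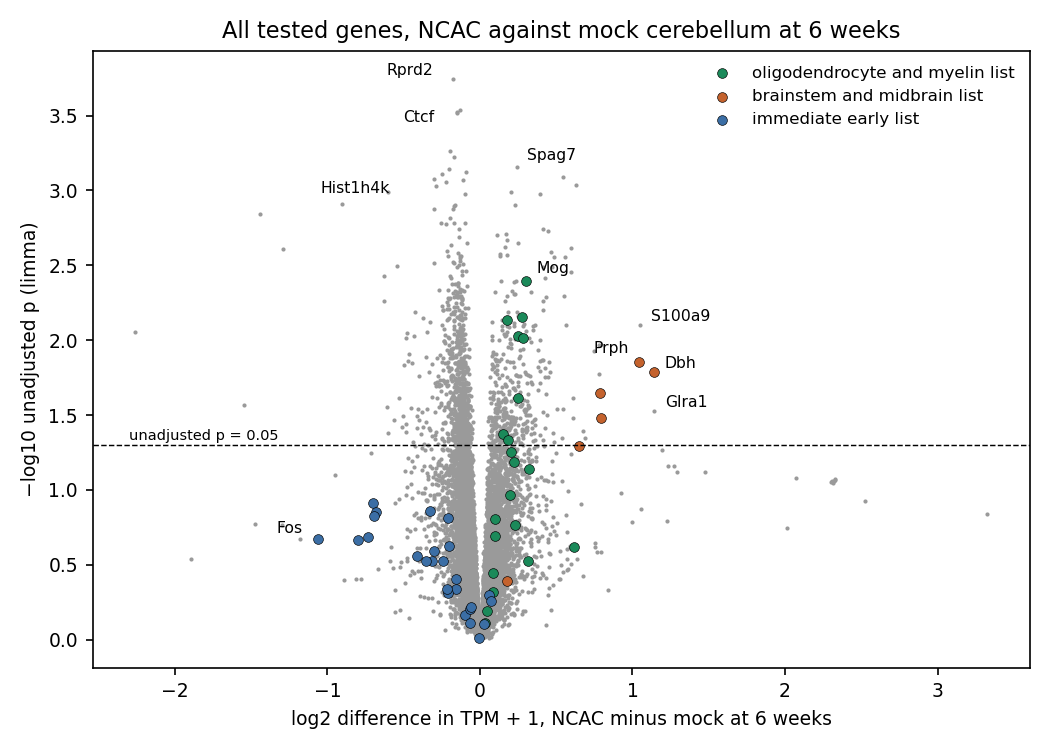
Difference between NCAC and mock at 6 wk for all 14399 tested genes (x axis, log2 of TPM + 1, NCAC minus mock) against −log10 of limma's unadjusted p (y axis), with 3 gene lists coloured and a dashed line at the unadjusted threshold of 0.05. Most points lie close to 0, the 21 myelin genes all lie to the right, and most immediate early genes lie to the left below the line.

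Among the genes with the smallest p and lower values in NCAC, Rprd2 (chr3:95760341-95818863 in GRCm38), which binds the tail of RNA polymerase II, was at 23.5, 23.6, 24.1, 23.9 and 22.8 TPM in NCAC, against 28.4, 25.3, 27.0, 27.0 and 26.2 TPM in mock. The groups did not overlap, and the log2 difference was -0.18 ± 0.04 (SE; unadjusted p = 0.00018). Ctcf (chr8:105636568-105682922), the insulator protein that shapes chromatin loops, was at 74.1, 71.1, 71.7, 68.6 and 63.3 TPM in NCAC, against 79.4, 72.3, 79.4, 77.8 and 78.6 TPM in mock, a log2 difference of -0.15 ± 0.04 (unadjusted p = 0.000305). NCAC replicate 1 lay above mock replicate 2, so the groups overlapped. Cdk13, a kinase of the RNA polymerase II tail, averaged 26.9 ± 0.774 TPM in NCAC and 30.0 ± 1.42 TPM in mock (-0.15 on the log2 scale). Tbpl1, a relative of the TATA-binding protein, averaged 68.6 ± 1.11 TPM in NCAC and 75.3 ± 3.30 TPM in mock (-0.13), with no overlap. Hp1bp3, a chromatin protein that binds heterochromatin protein 1, averaged 88.7 ± 1.16 TPM in NCAC and 95.3 ± 4.14 TPM in mock (-0.10), also with no overlap.

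The remaining genes of this leading set were Zfp68 (-0.20) and Zfp398 (-0.17), both zinc finger proteins, Nepro (-0.20), Cenpj, a centriole protein (-0.25), Slmap (-0.11), Nsun5, which methylates ribosomal RNA (-0.22), and the homeobox factor Irx3 (-0.29). Irx3 was at 14.8, 15.7, 12.9, 16.5 and 14.5 TPM in NCAC, against 19.5, 19.0, 17.3, 17.5 and 18.6 TPM in mock, and Cenpj at 4.34, 4.49, 3.84, 4.43 and 3.90 TPM in NCAC, against 5.22, 5.10, 5.06, 5.22 and 5.24 TPM in mock. Neither gene overlapped between the groups.

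Genes with higher values in NCAC and a small p included Spag7 (chr11:70663771-70669416), which was at 87.4, 95.3, 90.9, 84.9 and 93.5 TPM in NCAC, against 83.9, 78.9, 71.0, 71.0 and 77.5 TPM in mock, without overlap and with a log2 difference of 0.24 ± 0.07 (unadjusted p = 0.000695). Prr7 (chr13:55464267-55473154), a transmembrane adaptor found at synapses, was at 5.04, 4.26, 4.58, 5.10 and 5.98 TPM in NCAC, against 3.01, 3.87, 2.19, 3.07 and 3.56 TPM in mock (0.54 ± 0.15). All 5 NCAC libraries lay above mock for both genes. Tshz2, a zinc finger and homeobox factor, averaged 7.53 ± 1.74 TPM in NCAC and 4.54 ± 1.19 TPM in mock (0.63). It was 1 of the larger differences in the set, and NCAC replicate 4 at 5.75 TPM lay below mock replicate 4 at 6.11 TPM.

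Grb14, an adaptor that restrains the insulin receptor, averaged 6.28 ± 0.663 TPM in NCAC and 5.29 ± 0.288 TPM in mock (0.21). Prkcq, protein kinase C theta, averaged 4.34 ± 0.787 TPM in NCAC and 3.04 ± 0.214 TPM in mock (0.39). Cideb, a lipid droplet protein, had a log2 difference of 0.42, Pctp, which carries phosphatidylcholine, of 0.45, Sorbs2, a cytoskeletal adaptor, of 0.23, Nudt16l1 of 0.11, the nucleolar protein Nol12 of 0.18 and Smim20_1 of 0.17. Mina, a ribosomal oxygenase, averaged 2.96 ± 0.131 TPM in NCAC and 2.33 ± 0.213 TPM in mock (0.25), without overlap. The lowest NCAC library was at 2.81 TPM and the highest mock library at 2.62 TPM.

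Length and base composition went with the direction of the difference. Among the 13929 genes matched to a GENCODE M21 transcript (96.7% of those tested), the genes lower in NCAC at p under 0.05 had a median longest transcript of 4749 bases and 46.3% GC, and the higher genes 2582.5 bases and 51.5% GC, against 3354 bases and 49.8% GC for all. The genes were then cut by length into 5 groups of nearly equal size. Of the 2786 with the longest transcripts, 37 were higher and 330 lower at p under 0.05 (limma, unadjusted). Of the 2787 with the shortest, 118 were higher and 68 lower. Among all tested genes 2.6% were higher and 5.75% lower. Library by library, the mean log2 level of the longest group exceeded that of the shortest by 0.225 to 0.285 in NCAC and by 0.27 to 0.337 in mock, so NCAC sat at the low end. In CAC at 6 wk this excess was 0.266 to 0.364, which overlaps both. With median-of-ratios scaling the counts were 57 higher and 242 lower in the longest group and 167 higher and 55 lower in the shortest. In the longest group 11 were higher and 132 lower with the brainstem covariate, and 17 higher and 67 lower without NCAC replicates 2, 4 and 5. Without NCAC replicates 3 and 4 the counts were 52 higher and 350 lower. Fewer NCAC libraries also widen the intervals, and the part this had in the counts was not tested. No measure of RNA quality or fragment length was at hand, and their part in this pattern was not tested.

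The zinc finger genes named Zfp followed the same direction. Of 345 tested, 48 (13.9%) were lower in NCAC at p under 0.05 and 0 were higher (limma, unadjusted), against 5.75% and 2.6% of all genes, and their median log2 difference was -0.06, against -0.02 for all 14399 genes. With quantile normalization 37 were lower and 1 higher. With the brainstem covariate 22 were lower and 0 higher, and without NCAC replicates 2, 4 and 5 the counts were 12 lower and 2 higher with a median of -0.03. Without NCAC replicates 3 and 4 they were 37 lower and 1 higher with a median of -0.07. The smaller NCAC group also widens the intervals behind such counts. Many of these genes are close paralogs, so reads may have been split among them by the authors' counting. Whether this had any part in the counts was not tested.

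Markers of neurons that lie in the brainstem, outside the cerebellum, were among the largest differences. The promoters of Dbh and Slc18a2, genes of noradrenaline neurons, are shown because these genes varied together between libraries, and that of Fos because it leads the activity genes described further on. Each is 300 bases, from RefSeq on GRCm38.p6, all on the plus strand: Dbh at chr2:27165257-27165556, Slc18a2 at chr19:59260628-59260927 and Fos at chr12:85473640-85473939. By the GENCODE gene coordinates given further on, the Dbh stretch lies inside the gene and the Fos stretch runs past the gene start. Capitals in Dbh mark ATTA, the core bound by homeodomain proteins, and capitals in Slc18a2 and Fos mark TGACGT, the core of the cAMP response element, which in Slc18a2 is read on both strands of TGACGTCA.
Dbh: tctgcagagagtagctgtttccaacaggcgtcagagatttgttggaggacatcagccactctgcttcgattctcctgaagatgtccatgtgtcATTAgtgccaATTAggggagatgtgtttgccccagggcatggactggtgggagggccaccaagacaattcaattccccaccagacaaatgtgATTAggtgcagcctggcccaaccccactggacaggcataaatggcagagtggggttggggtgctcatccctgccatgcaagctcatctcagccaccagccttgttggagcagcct
Slc18a2: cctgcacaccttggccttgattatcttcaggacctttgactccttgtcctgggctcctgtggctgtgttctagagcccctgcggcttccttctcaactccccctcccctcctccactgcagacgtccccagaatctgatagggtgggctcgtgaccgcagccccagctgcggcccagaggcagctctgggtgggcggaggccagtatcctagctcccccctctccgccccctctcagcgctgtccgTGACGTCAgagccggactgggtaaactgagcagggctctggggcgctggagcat
Fos: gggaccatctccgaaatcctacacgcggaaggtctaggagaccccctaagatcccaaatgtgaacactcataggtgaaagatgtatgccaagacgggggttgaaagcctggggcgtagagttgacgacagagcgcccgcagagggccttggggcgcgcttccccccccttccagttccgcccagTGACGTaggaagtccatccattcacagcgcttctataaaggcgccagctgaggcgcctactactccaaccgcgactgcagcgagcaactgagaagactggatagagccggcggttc
Counting both strands, the Dbh promoter held ATTA 3 times, and 20.04% of the 32851 promoters of the same length held it at least 3 times. The TGACGT core had 1 match in Fos and 2 overlapping matches in Slc18a2, and 7.513% of all promoters held at least 1. Such a match describes the letters and does not show a bound site.

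Dbh (chr2:27165233-27183200), the enzyme that makes noradrenaline from dopamine, was at 1.20, 5.16, 1.22, 4.12 and 3.76 TPM in NCAC, against 0.415, 0.978, 0.761, 1.23 and 0.282 TPM in mock. NCAC replicates 2, 4 and 5 stood far above every mock library, while replicates 1 and 3 lay within the mock range. The log2 difference was 1.14 ± 0.46 (SE; unadjusted p = 0.0164). Slc18a2, the transporter that loads monoamines into vesicles, was at 0.601, 2.69, 0.554, 2.09 and 2.52 TPM in NCAC, against 0.342, 0.657, 0.367, 0.510 and 0.424 TPM in mock (0.79; unadjusted p = 0.0224). The same replicates were high. In bulk tissue, more cells of a type and more RNA per cell cannot be told apart. Prph, an intermediate filament of neurons whose axons leave the brain, was at 0.255, 2.02, 0.736, 5.50 and 5.91 TPM in NCAC, against 0.200, 1.058, 0.200, 0.988 and 0.356 TPM in mock (1.04; unadjusted p = 0.0139). Calca, the calcitonin gene-related peptide precursor, was at 0.339, 2.84, 2.88, 5.27 and 5.37 TPM in NCAC, against 1.33, 1.33, 0.608, 1.96 and 0.957 TPM in mock (0.80; unadjusted p = 0.0329). For Prph and Calca replicates 4 and 5 were the highest, and replicate 1 lay within or below the mock range. Glra1, a glycine receptor subunit abundant in brainstem and spinal cord, was at 3.31, 11.2, 4.67, 13.8 and 23.4 TPM in NCAC, against 3.08, 3.87, 2.74, 3.09 and 5.74 TPM in mock (1.14; unadjusted p = 0.0298). Again replicates 2, 4 and 5 exceeded all mock libraries.

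The brainstem and midbrain list held 21 genes, of which 6 passed the filter of a mean of 1 TPM over all libraries. All 6 were higher in NCAC, with a median log2 difference of 0.79, and 4 were at p under 0.05 (limma, unadjusted), against 2.6% of all genes. This count describes the list and is no test of it. The list was chosen with earlier results known, and a gene can pass the filter through the libraries where it is high. The 4 were Dbh, Slc18a2, Prph and Calca, and Slc18a2 was below 1 TPM in every mock library of 6 wk. The other tested members were Sncg, gamma-synuclein (11.2, 25.4, 17.0, 30.5 and 34.5 TPM in NCAC, against 12.6, 16.5, 11.9, 14.3 and 13.4 TPM in mock), and Th, the first enzyme of catecholamine synthesis, which some cerebellar neurons also express (5.72, 7.08, 7.82, 6.88 and 8.34 TPM in NCAC, against 7.99, 6.12, 5.24, 6.20 and 5.70 TPM in mock). Sncg had a log2 difference of 0.65 (unadjusted p = 0.0505) and Th of 0.17 (unadjusted p = 0.405). The mean log2 level of the 6 genes was 1.49, 2.63, 1.98, 2.88 and 2.98 in NCAC replicates 1 to 5, against 1.42 to 1.85 in mock. Levels above the mock range of 6 wk were not restricted to NCAC at 6 wk: 31 of the 62 libraries lay above the highest mock library there. Of these, 4 were NCAC and 4 CAC at 6 wk. At 2, 4 and 8 wk 6 were NCAC, 11 CAC and 6 mock.

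Members below the filter differed in which NCAC libraries were high. Slc6a2, the noradrenaline transporter, was at 0.478, 2.50, 0.489, 1.96 and 1.86 TPM in NCAC, against 0.241, 0.746, 0.332, 0.644 and 0.261 TPM in mock, and lay above the mock range in replicates 2, 4 and 5. Genes of cholinergic neurons had another order. Slc5a7, the choline transporter, was at 0, 1.49, 0.212, 3.14 and 4.26 TPM in NCAC, against 0.252, 0.559, 0.0540, 0.319 and 0.0550 TPM in mock, and Slc18a3, which loads acetylcholine into vesicles and lies inside the Chat locus, was at 0, 1.30, 0.114, 2.57 and 3.45 TPM in NCAC, against 0, 0.164, 0, 0.0804 and 0 TPM in mock. Replicate 5 was highest, then 4, then 2. Hoxb5, a homeobox gene of the posterior hindbrain and spinal cord, was at 0.0502, 0.146, 0.193, 0.8291 and 5.34 TPM in NCAC, against 0.147, 0.347, 0.197, 0.102 and 0.1001 TPM in mock, and Hoxa5 at 0, 0.0490, 0.244, 0.345 and 3.85 TPM in NCAC, against 0.198, 0.351, 0.149, 0 and 0.0505 TPM in mock. Hoxb5 lay above the mock range in NCAC replicates 4 and 5, and Hoxa5 in replicate 5. The serotonin gene Tph2 was at 0.694, 0.863, 0.636, 0.353 and 0.628 TPM in NCAC, against 0.452, 0.549, 0.550, 0.438 and 0.395 TPM in mock, with its lowest value in replicate 4, and Slc6a4, the serotonin transporter, reached 0.0812 TPM in NCAC and 0.0290 TPM in mock. These genes below the filter were chosen after their values were seen. The part that the dissection had in these values was not tested.

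Myelin genes were higher in NCAC throughout the list. All 21 tested oligodendrocyte and myelin genes had a positive difference, with a median of 0.20 on the log2 scale, against -0.02 for all genes, and 8 were at p under 0.05 (limma, unadjusted), against 2.6% of all genes. Mog, a glycoprotein of the outer myelin surface, was at 78.5, 106, 84.4, 89.7 and 108 TPM in NCAC, against 62.6, 72.1, 76.1, 89.1 and 77.5 TPM in mock, a log2 difference of 0.30 ± 0.10 (unadjusted p = 0.00404). Mock replicate 4 reached into the NCAC range. Cnp, an enzyme of non-compact myelin, was at 324, 371, 354, 314 and 380.4 TPM in NCAC, against 300.0, 301, 303, 318 and 317 TPM in mock (0.17; unadjusted p = 0.00737). Cldn11, the tight junction protein of myelin, was at 159.6, 194, 154, 166 and 198 TPM in NCAC, against 122, 134, 144, 169 and 151 TPM in mock (0.28; unadjusted p = 0.00703). In Mog, Cnp and Cldn11 alike, NCAC replicates 2 and 5 were the highest of the 10 libraries.

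The precursors of these cells showed smaller values in the same direction. The 14 oligodendrocyte precursor genes had a median of 0.13, with 10 positive and 2 higher at p under 0.05 (limma, unadjusted), against 2.6% of all genes. With the brainstem covariate the median was 0.0646. It was 0.11 without NCAC replicates 2, 4 and 5 and 0.18 without NCAC replicates 3 and 4. Olig1, a transcription factor of the lineage, averaged 72.7 ± 8.11 TPM in NCAC and 59.7 ± 5.88 TPM in mock (0.28), and Bcas1, which marks newly forming oligodendrocytes, 115 ± 12.5 TPM in NCAC and 97.3 ± 6.03 TPM in mock (0.23).

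Myelin and brainstem markers moved together in part. The mean log2 level of the 21 myelin genes was 6.40, 6.64, 6.49, 6.53 and 6.70 in NCAC replicates 1 to 5, against 6.22, 6.33, 6.39, 6.35 and 6.41 in mock, so replicates 2 and 5, high in brainstem markers, were also the highest here. With the brainstem level as a covariate, an alternative chosen after seeing the data, the myelin median was 0.13, and without NCAC replicates 2, 4 and 5 it was 0.09. Without NCAC replicates 3 and 4 it was 0.24, and without NCAC replicate 1 alone 0.25. The mock arm at 6 wk was also the lowest of the mock arms: the list averaged 6.57, 6.41, 6.34 and 6.44 in mock at 2, 4, 6 and 8 wk, beside 6.51, 6.50, 6.55 and 6.41 in NCAC. The part that brainstem tissue had in the myelin values was not tested beyond these numbers.

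**Figure D2:**
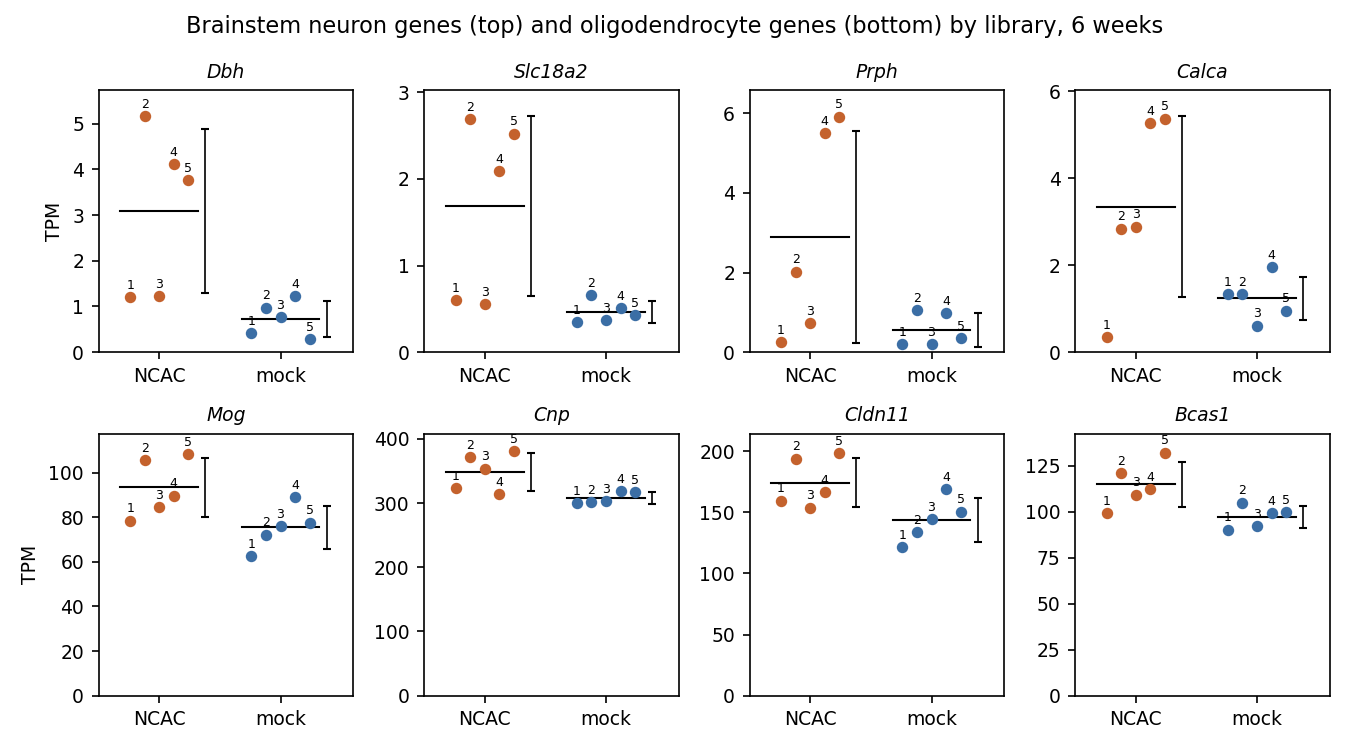
TPM of 4 brainstem neuron genes (top) and 4 oligodendrocyte genes (bottom) in NCAC (left, orange) and mock (right, blue) at 6 wk, with each point marked by its replicate number, the group mean as a line and the SD as a bar (n = 5 each). NCAC replicates 2, 4 and 5 stand apart for Dbh and Slc18a2, and replicates 2 and 5 are the highest for Mog, Cnp and Cldn11.

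Granule neuron genes were slightly lower in NCAC. Of 16 tested, 15 had a negative difference, the median was -0.09, and 4 were lower at p under 0.05 (limma, unadjusted), against 5.75% of all genes. Pax6, a transcription factor of granule cells, was at 28.2, 26.7, 27.8, 26.4 and 27.1 TPM in NCAC, against 28.4, 30.8, 31.0, 30.4 and 30.1 TPM in mock (-0.14 ± 0.05; unadjusted p = 0.0101). All 5 NCAC libraries lay below all mock libraries. Neurod1, a transcription factor kept on in granule neurons, was at 529.6, 518, 500.0, 455 and 399.8 TPM in NCAC, against 522, 499, 545, 579 and 555 TPM in mock (-0.17). Gabra6, a GABA receptor subunit largely restricted to granule cells, was at 1004, 998, 952, 967 and 827 TPM in NCAC, against 982, 1030.3, 1148, 1089 and 1077 TPM in mock (-0.17). NCAC replicate 5 was the lowest library for Neurod1 and Gabra6. Reln, the secreted guidance protein, had a difference of -0.12. With the brainstem covariate the granule median was 0.0015, and without NCAC replicates 2, 4 and 5 it was -0.03. Without NCAC replicates 3 and 4 it was -0.09, and with each library left out -0.06 to -0.12. The brainstem level lay above all mock libraries of 6 wk in 4 NCAC libraries. Adjusting for it therefore also takes out difference between the arms.

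Among 34 postsynaptic and ion channel genes the median was -0.04, with 27 negative and 6 lower at p under 0.05 (limma, unadjusted), against 5.75% of all genes. The median was 0.002 with the brainstem covariate, -0.0064 without NCAC replicates 2, 4 and 5, and -0.0691 without NCAC replicate 1. Without NCAC replicates 3 and 4 it was -0.0404. Scn2a1, a sodium channel of axons, had a difference of -0.14. Of 23 presynaptic genes 14 had a negative difference and 3 of these were at p under 0.05 (limma, unadjusted), against 5.75% of all genes. Among them was Rims1, an organiser of the release site, at 120.3, 121, 114, 118 and 104 TPM in NCAC, against 124, 124, 131, 132 and 124 TPM in mock (-0.14), with no overlap. Vamp2, the vesicle fusion protein, had a difference of -0.08. In the other direction, Slc17a6, a glutamate transporter of brainstem and deep cerebellar neurons, was at 10.4, 18.2, 16.6, 23.7 and 31.5 TPM in NCAC, against 12.8, 14.0, 12.6, 14.3 and 15.8 TPM in mock (0.42; unadjusted p = 0.0853), and Slc6a11, a GABA transporter of astrocytes, at 64.3, 86.2, 71.6, 106 and 118 TPM in NCAC, against 68.6, 67.5, 64.6, 66.5 and 70.2 TPM in mock (0.36). For both, replicates 4 and 5 were the highest, and with the brainstem covariate the difference was -0.10 for Slc17a6 and -0.0037 for Slc6a11. Purkinje cell genes had a median of -0.05 over 16 genes, with 0 at p under 0.05 in either direction (limma, unadjusted). Only 2 of these 16 had a positive difference, so negative differences were not particular to granule cell genes.

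Immediate early genes, which neurons switch on within minutes of activity, had the lowest median of all lists. Of 26 tested, 23 had a negative difference and the median was -0.22, while 0 were at p under 0.05 (limma, unadjusted). Fos (chr12:85473890-85477273), whose promoter is printed above, was at 51.4, 55.0, 18.4, 10.7 and 5.30 TPM in NCAC, against 82.1, 11.9, 52.4, 39.1 and 71.5 TPM in mock, a log2 difference of -1.062 (95% interval -2.75 to 0.62). The interval covers a large fall and a moderate rise. Npas4, a factor induced by calcium entry, was at 3.78, 4.72, 2.49, 1.78 and 0.745 TPM in NCAC, against 5.02, 2.13, 6.82, 3.97 and 6.16 TPM in mock (-0.70; unadjusted p = 0.123). Nr4a1, an inducible nuclear receptor, was at 37.6, 38.3, 22.7, 17.6 and 10.9 TPM in NCAC, against 55.1, 16.8, 43.3, 39.2 and 46.3 TPM in mock (-0.68), and Dusp1, a phosphatase induced by activity and glucocorticoids, at 74.7, 69.3, 27.5, 29.1 and 20.3 TPM in NCAC, against 78.2, 40.5, 68.8, 56.2 and 81.9 TPM in mock (-0.70). NCAC replicates 3, 4 and 5 were low and replicates 1 and 2 high, while in mock replicate 2 was the low library for all 4 genes. Ier2 had a difference of -0.33. Among 24 clock genes 21 were negative with a median of -0.08, and Per1, which is also inducible, was at 88.0, 73.7, 56.3, 63.0 and 45.0 TPM in NCAC, against 77.3, 67.4, 92.6, 91.6 and 97.6 TPM in mock (-0.41). The labels do not state the time of day of tissue collection.

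**Figure D3:**
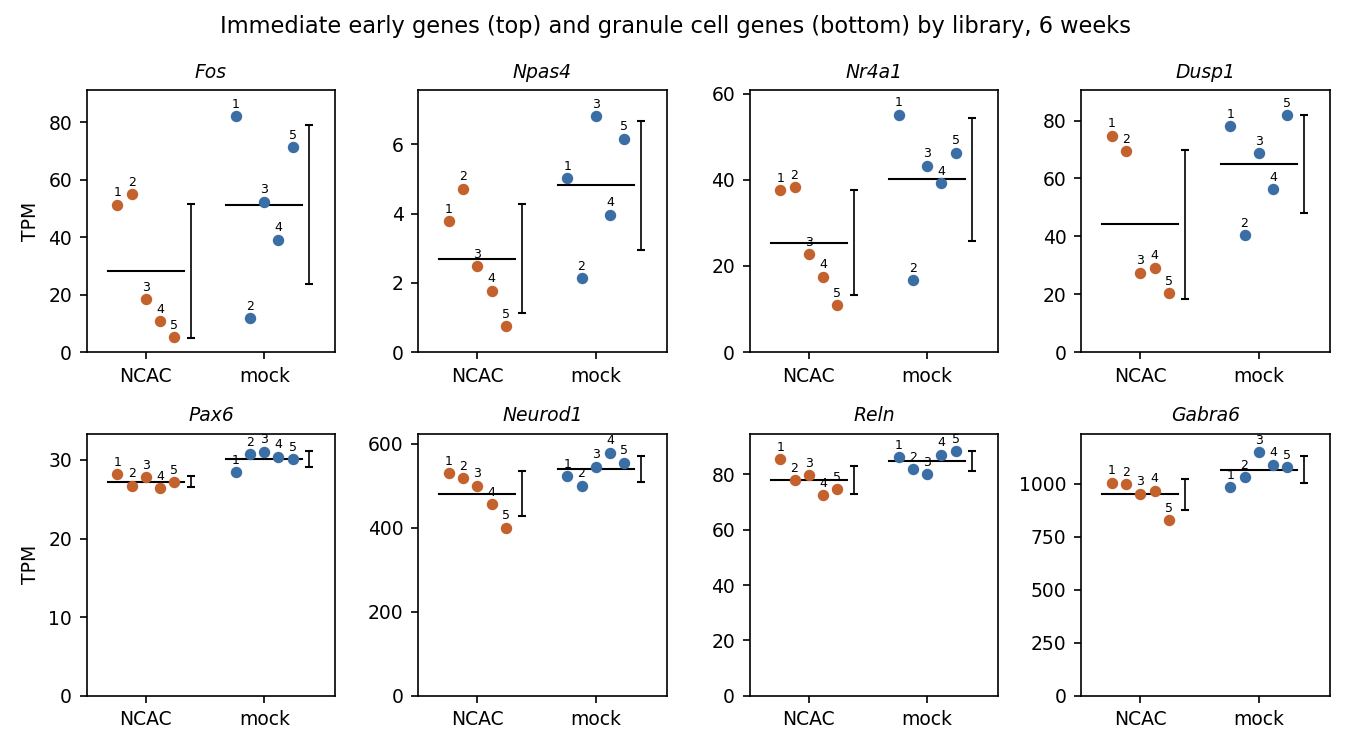
TPM of 4 immediate early genes (top) and 4 granule cell genes (bottom) in NCAC (left, orange) and mock (right, blue) at 6 wk, with each point marked by its replicate number, the group mean as a line and the SD as a bar (n = 5 each). The early genes spread widely in both groups, and Pax6 is the gene whose groups do not overlap.

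Cholesterol synthesis genes were slightly higher in NCAC. Of 25 tested, 22 had a positive difference, the median was 0.11, and 4 were at p under 0.05 (limma, unadjusted), against 2.6% of all genes. Hmgcs1, which makes HMG-CoA, was at 139.9, 153, 158, 137 and 153 TPM in NCAC, against 127, 118, 128, 131 and 139 TPM in mock (0.20 ± 0.09; unadjusted p = 0.0325). Acat2, which joins acetyl groups at the start of the pathway, had a difference of 0.15, and Fdft1, squalene synthase, of 0.20. The groups overlapped in Hmgcs1, Acat2 and Fdft1. The median was 0.10 with the brainstem covariate and 0.17 without NCAC replicates 2, 4 and 5, and leaving out mock replicate 5 alone also gave 0.17.

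Lists that mark wasting and inflammation lay close to the median of all genes. The 27 glucocorticoid response genes had a median of 0.02, with 15 positive and 0 at p under 0.05 (limma, unadjusted). Fkbp5, induced by glucocorticoids, was at 8.00, 6.39, 5.48, 7.16 and 8.96 TPM in NCAC, against 5.15, 6.02, 8.30, 6.97 and 6.07 TPM in mock (0.13, 95% interval -0.61 to 0.86). The 17 genes of acute inflammation and the IL-6 family had a median of -0.01 and 0 at p under 0.05 (limma, unadjusted), and Lrg1, a glycoprotein induced by inflammation, was at 1.55, 1.77, 1.83, 1.92 and 2.54 TPM in NCAC, against 2.00, 1.27, 1.38, 1.58 and 1.90 TPM in mock (0.16, 95% interval -0.35 to 0.66). The 23 microglial genes had a median of -0.001 with 1 higher at p under 0.05, and the 28 interferon and MHC class I genes 0.02 with 1 lower (limma, unadjusted), near the 2.6% higher and 5.75% lower of all genes.

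Transcripts of blood cells varied widely between libraries. S100a9, a calcium-binding protein of neutrophils, was at 0.729, 3.88, 3.16, 4.96 and 6.06 TPM in NCAC, against 1.43, 1.26, 1.96, 0.743 and 0.363 TPM in mock (1.05; unadjusted p = 0.00788), and its partner S100a8 at 0.686, 0.663, 1.055, 1.73 and 2.08 TPM in NCAC, against 1.07, 0.379, 0.805, 0.280 and 0.137 TPM in mock (0.54). NCAC replicate 1 was the lowest NCAC library for S100a9. The neutrophil list had 3 tested members, and the lowest of their log2 differences was 0.01. Ngp did not exceed 0.888 TPM, Camp 0.491 TPM and Ltf 0.186 TPM in either group. Hba-a1, an alpha globin with a near-identical copy, was at 1097, 1938, 710.2, 732 and 605 TPM in NCAC, against 298, 223, 226, 977 and 729 TPM in mock (1.19), and Hbb-bs, a beta globin, at 859, 1794, 865, 1021 and 565 TPM in NCAC, against 550.2, 250.2, 456, 779 and 642 TPM in mock (0.92). NCAC replicate 2 was the highest for both globins. Of 9 tested red blood cell genes 8 had a positive difference and 0 were at p under 0.05 (limma, unadjusted). Trac, the constant region of the T cell receptor alpha chain, was at 4.68, 5.21, 5.29, 5.04 and 5.32 TPM in NCAC, against 4.18, 3.94, 3.49, 4.25 and 3.96 TPM in mock (0.30; unadjusted p = 0.0168), without overlap. Cd3e, which T cells need for the same receptor, was listed at 0 in every NCAC library. Of the 5 tested lymphocyte genes 3 had a positive difference, with a median of 0.05 and a range from -0.57 to 0.50. Of these 5, 1 was higher at p under 0.05 (limma, unadjusted), against 2.6% of all genes. The whole list summed to 132 TPM in mock replicate 1 and to 10.9 to 12.9 TPM in the other mock libraries.

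The choroid plexus values turned on mock replicate 4. All 19 had a positive difference with a median of 0.45, yet 0 were at p under 0.05 (limma, unadjusted). Ttr, transthyretin, was at 2627, 5342, 85.0, 3849 and 4858 TPM in NCAC, against 5074, 5359.8, 6258, 39.2 and 2660.3 TPM in mock, a log2 difference of 0.06 (95% interval -3.10 to 3.22; adjusted p = 0.994). NCAC replicate 3 and mock replicate 4 were the low libraries. Sostdc1, a secreted antagonist, was at 41.3, 48.9, 44.5, 31.6 and 39.9 TPM in NCAC, against 41.7, 43.5, 45.2, 0.443 and 13.3 TPM in mock. Without mock replicate 4 the list's median was 0.04 and the difference of Ttr was -1.31. The same mock library had 9.33 TPM of H2-D1, an MHC class I gene, against 94.5 to 116 TPM in the other mock libraries and 94.5 to 165 TPM in NCAC.

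Growth factor and organelle genes gave few differences. Among 24 insulin and growth factor genes the median was -0.02 and 3 were lower at p under 0.05 (limma, unadjusted), against 5.75% of all genes. Igfbp5, a binding protein of insulin-like growth factors, was at 194, 188, 172, 211 and 173 TPM in NCAC, against 241, 191, 244, 254 and 229 TPM in mock (-0.30). Insr, the insulin receptor, was at 33.5, 32.3, 31.8, 33.2 and 29.7 TPM in NCAC, against 35.0, 35.2, 34.1, 34.1 and 34.4 TPM in mock (-0.10), without overlap, and Bdnf, a neurotrophin, had a difference of -0.36. Of 61 cytosolic ribosome genes 51 were positive with a median of 0.03, and 3 were higher at p under 0.05 (limma, unadjusted), against 2.6% of all genes, including Rpl37 (0.14) and Rps21 (0.14). Of 48 nuclear oxidative phosphorylation genes 38 were positive with a median of 0.02. There Ndufs8, a subunit of complex I, was at 204, 193, 206, 187 and 189 TPM in NCAC, against 171, 183, 178, 172 and 187 TPM in mock (0.13), without overlap, and Atp5g1, a subunit of ATP synthase, was lower (-0.24). In the integrated stress response list of 19 genes, Atf4, its central factor, had a difference of -0.09 and Chac1, a target of it, of 0.28.

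Genes with the largest differences at p under 0.05 were mostly scarce transcripts. Lenep was at 0, 0.357, 1.37, 0.409 and 0 TPM in NCAC, against 2.99, 1.97, 1.86, 2.85 and 4.15 TPM in mock (-1.44; unadjusted p = 0.00143), without overlap. Snhg3, a host of small nucleolar RNAs, was at 8.30, 6.34, 6.13, 8.998 and 7.98 TPM in NCAC, against 9.81, 13.7, 16.0, 9.64 and 12.4 TPM in mock (-0.63), also without overlap. Hist1h4k, a histone H4 gene with near-identical copies, averaged 0.649 ± 0.244 TPM in NCAC and 2.23 ± 1.03 TPM in mock (-0.91) and is uncertain for that reason. Ccdc36 had a difference of -0.61, the organic cation transporter Slc22a4 of -0.60, and Phf2os1, an antisense RNA whose reads depend on strand in the counting, of -0.54. Cwc22, a splicing factor gene, was at 12.8, 12.1, 413, 661 and 11.3 TPM in NCAC, against 12.6, 14.1, 11.7, 12.02 and 12.6 TPM in mock. NCAC replicates 3 and 4 were high, and 14 of the 62 libraries stood above 100 TPM, of which 8 were NCAC, 5 CAC and 1 mock.

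**Figure D4:**
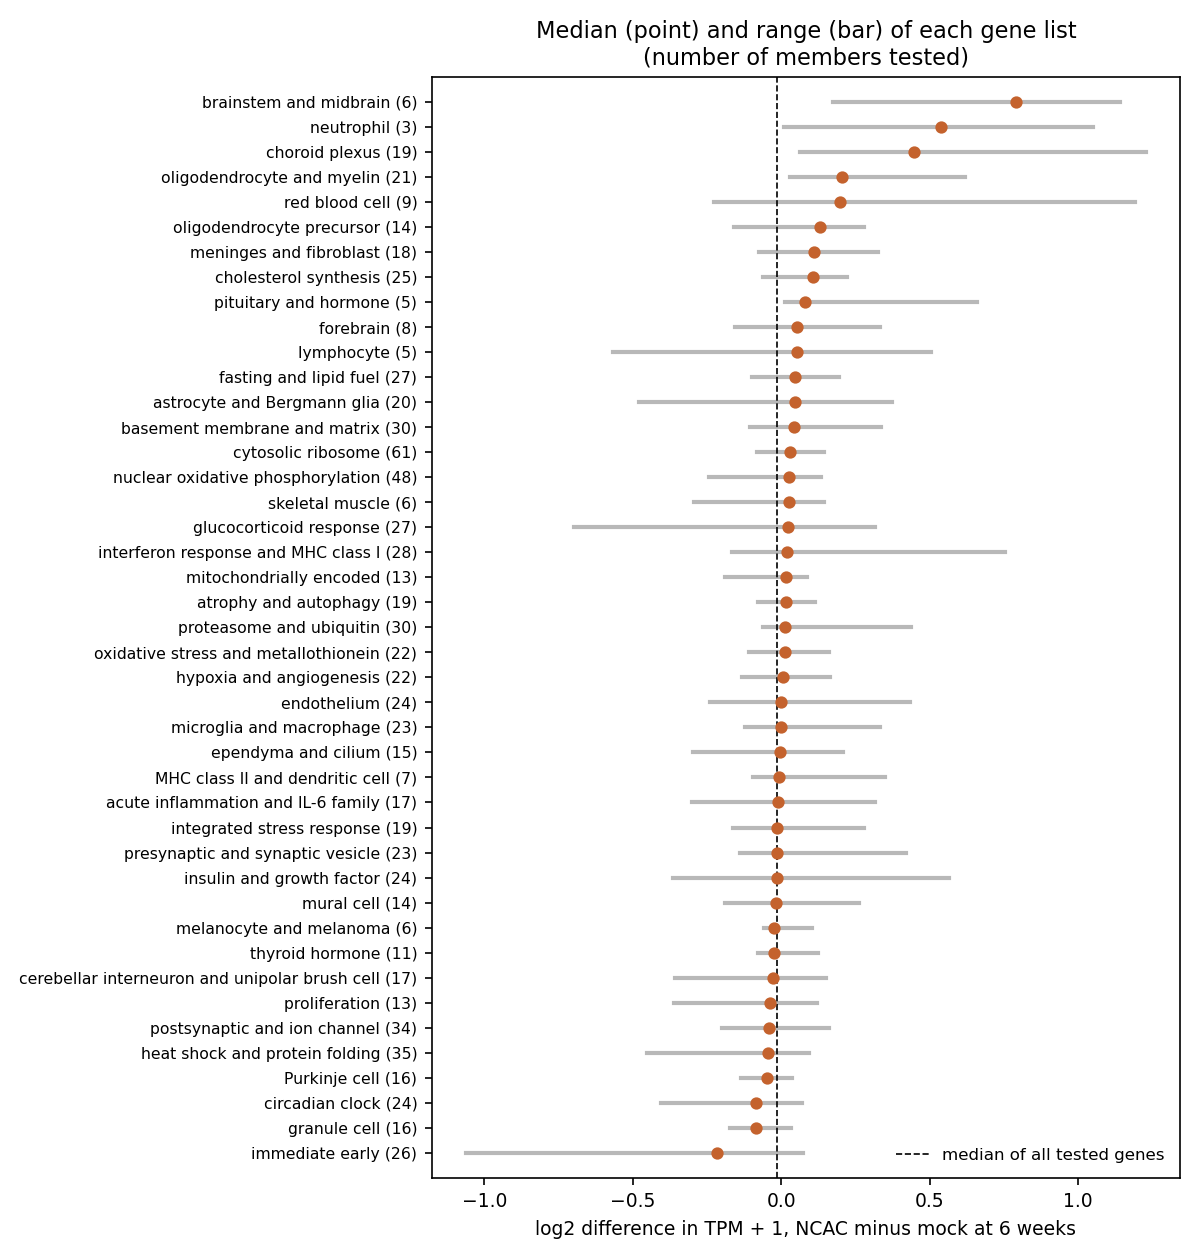
Median (point) and range from lowest to highest member (grey bar) of the log2 difference, NCAC minus mock at 6 wk, for each of 43 gene lists with the number of members tested in parentheses. The brainstem list has the highest median (0.79) and the immediate early list the lowest (-0.22), and most lists lie near the dashed median of all genes (-0.02).

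The differences at 6 wk were next set against those at the other weeks, which have other libraries in both arms. Limma called 0 genes for the NCAC against mock difference at 6 wk minus the mean of that at 2, 4 and 8 wk (smallest adjusted p = 0.514), with 1265 genes (8.79%) at an unadjusted p under 0.05, of which 395 (2.74%) had a positive and 870 (6.04%) a negative contrast. For Mog the NCAC minus mock difference was 0.30 at 6 wk, beside 0.07, 0.03 and -0.08 at 2, 4 and 8 wk (unadjusted p = 0.0135 for the contrast). For Rprd2 it was -0.18, beside 0.10, -0.01 and 0.03 (unadjusted p = 7.3e-05), and for Ctcf -0.15, beside 0.03, -0.02 and 0.02 (unadjusted p = 0.000676). None of these passed the adjustment. Mog, Rprd2 and Ctcf were named for their small p at 6 wk, and the contrast contains that same difference. Its p is therefore small in part by selection and is no separate evidence about 6 wk. The median of the myelin list was 0.20 at 6 wk, beside -0.02, 0.02 and -0.04 at 2, 4 and 8 wk, and that of the immediate early list was -0.22, beside 0.25, 0.11 and -0.24. The brainstem list gave 0.79, beside 0.08, 0.21 and -0.43, and the cholesterol list 0.11, beside 0.05, 0.05 and 0.03. The immediate early and brainstem medians thus took both signs over the weeks.

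The arm with the cachectic melanoma at 6 wk was set against NCAC, where both carry a tumour. Limma called 1361 genes (9.45%; Benjamini-Hochberg adjusted p under 0.05), of which 1075 (7.47%) were higher in CAC and 286 (1.99%) lower. This split turned with the scale: median-of-ratios scaling gave 443 higher and 622 lower genes, quantile normalization 450 and 625, and removal of the mitochondrially encoded genes 556 and 466. Single libraries also moved the total. It dropped to 247, 824 or 810 genes when CAC replicate 1, 3 or 5 was left out, and to 663, 776 or 633 when NCAC replicate 2, 3 or 5 was. At an unadjusted p under 0.05, 19.6% of all genes were higher and 6.31% lower. A limit of 1.5-fold left 96 genes. This comparison shares the NCAC libraries with the comparison to mock, so the values of the 3 arms are given side by side.

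Lrg1 was at 25.6, 9.34, 12.3, 6.30 and 8.47 TPM in CAC, against 1.55, 1.77, 1.83, 1.92 and 2.54 TPM in NCAC, a log2 difference of 2.05 (limma, adjusted p = 1.14e-06), and at 2.00, 1.27, 1.38, 1.58 and 1.90 TPM in mock. Every CAC library lay above every NCAC and mock library. Etnppl, an astrocyte enzyme of phosphoethanolamine breakdown, was at 72.2, 65.4, 44.7, 24.4 and 45.2 TPM in CAC, against 9.96, 4.89, 4.35, 12.8 and 9.46 TPM in NCAC (2.47; limma, adjusted p = 0.00178), and at 15.0, 11.7, 10.9, 12.6 and 7.00 TPM in mock. Phyhd1, a dioxygenase, was at 51.7, 35.0, 38.8, 19.2 and 31.5 TPM in CAC, against 12.8, 9.45, 9.17, 12.5 and 12.8 TPM in NCAC (1.503; limma, adjusted p = 0.00178), and at 16.9, 10.1, 9.39, 12.8 and 9.17 TPM in mock. Both rose in CAC relative to NCAC, without overlap with NCAC or mock. Plin4, a lipid droplet coat protein, rose by 1.74 and Sh3rf3 by 1.48 (limma, adjusted p = 0.0484 and 0.0438), but those calls were lost in 13 and 12 of 18 alternatives. Fkbp5 averaged 20.1 ± 12.1 TPM in CAC, 7.20 ± 1.36 TPM in NCAC and 6.50 ± 1.19 TPM in mock, with a call between CAC and NCAC (limma, adjusted p = 0.0277) that was lost in 5 of 18 alternatives. Its list, the glucocorticoid response, had a median of 0.71 between CAC and NCAC with 15 of 27 members higher, against 7.47% of all genes.

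Genes lower in CAC than in NCAC included glial and vascular genes. Fabp7, a fatty acid binding protein of Bergmann glia, was at 15.6, 21.98, 27.0, 77.7 and 40.6 TPM in CAC, against 93.1, 96.9, 126, 82.6 and 67.2 TPM in NCAC (-1.52; limma, adjusted p = 0.00985), and at 75.0, 70.4, 71.4, 56.2 and 80.6 TPM in mock. Tnc, the matrix protein tenascin C, was at 2.47, 2.48, 6.03, 9.36 and 5.16 TPM in CAC, against 12.4, 14.2, 18.0, 12.1 and 9.51 TPM in NCAC (-1.32; limma, adjusted p = 0.00746), and at 11.7, 15.2, 10.3, 13.9 and 14.7 TPM in mock. In each gene CAC replicate 4 was the highest CAC library. Gkn3 fell by 1.33, Opalin, a myelin protein, fell by 1.28 and Col2a1, a collagen, fell by 1.09 on the log2 scale in CAC relative to NCAC (limma, adjusted p = 0.0161, 0.008 and 0.0166). Col2a1 averaged 1.12 ± 0.983 TPM in CAC, 3.24 ± 0.626 TPM in NCAC and 2.63 ± 1.13 TPM in mock. Of 18 alternatives, the call of Fabp7 was lost in 1 (without CAC replicate 1), that of Opalin in 2 (the same and the compared groups alone) and that of Gkn3 in 3 (both of these and without CAC replicate 3).

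The myelin gene Mog had its highest mean in NCAC among the 3 arms at 6 wk. It averaged 73.4 ± 10.2 TPM in CAC, 93.3 ± 13.1 TPM in NCAC and 75.5 ± 9.57 TPM in mock, and was lower in CAC than in NCAC (limma, adjusted p = 0.0248), a call lost in 6 of 18 alternatives. Of the 21 myelin genes 7 were lower and 1 higher in CAC than in NCAC (limma, adjusted p under 0.05), against 1.99% and 7.47% of all genes, with a median of -0.12. Of the 25 cholesterol genes 8 were lower and 0 higher, with a median of -0.25. Because these counts rest on the same NCAC libraries that were high in the comparison to mock, they add no separate measurement of NCAC.

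**Figure D5:**
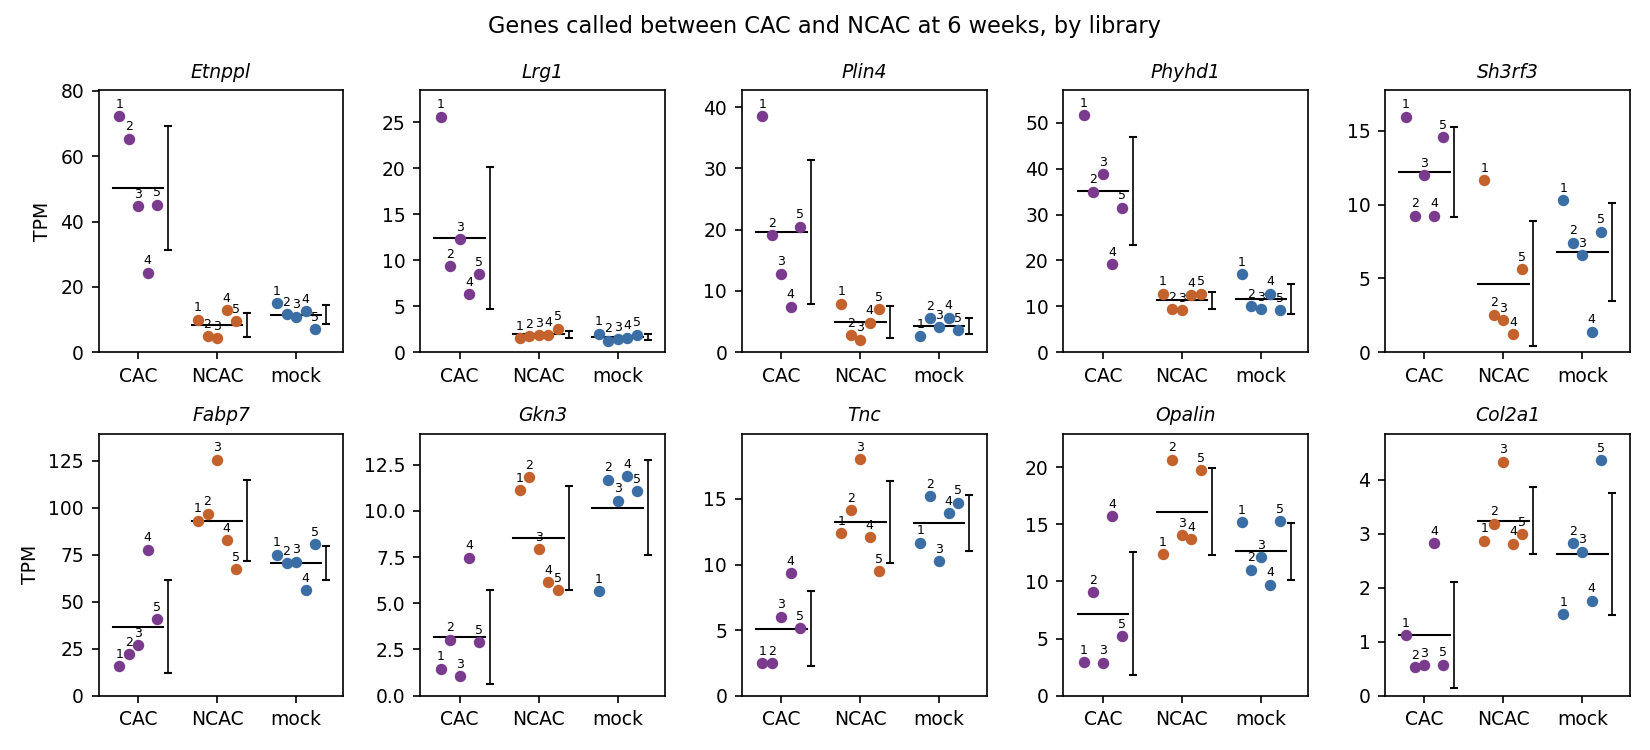
TPM at 6 wk in CAC (left, purple), NCAC (middle, orange) and mock (right, blue) for the 5 genes most increased (top) and the 5 most decreased (bottom) among those called between CAC and NCAC, with each point marked by its replicate number, the group mean as a line and the SD as a bar (n = 5 each). NCAC and mock occupy overlapping ranges in all 10 genes.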

How the data were processed

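Cerebellar RNA was sequenced from poly(A)-selected, stranded libraries, per the labels' protocols. The authors deposited TPM, a share of transcripts normalised for length and library total, for 47643 gene symbols in each of 62 libraries. The genome build was mm10, per the submitters' processing notes. The aligner, quantifier, annotation and use of strand were not given in the sources used here. The TPM values sum to 1e+06 in each library, so depth is unknown, and a transcript that takes a large share lowers all others.

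Values were analysed as log2(TPM + 1), and fold changes on this scale understate those of low genes. The 14399 symbols with a mean of at least 1 TPM over all libraries were tested with limma 3.58.1 in R 4.3.3, in 1 fit of 12 groups with 50 residual degrees of freedom, a mean-dependent variance trend and Benjamini-Hochberg adjustment at 0.05. The procedure was tested on simulated data. The fit gave NCAC minus mock at 6 wk, CAC minus NCAC at 6 wk, and NCAC minus mock at 6 wk minus its mean at 2, 4 and 8 wk. Figures were drawn with matplotlib 3.10.9 in Python 3.11.15. Sequences came from RefSeq promoters on GRCm38.p6, and gene coordinates and transcript lengths from GENCODE M21 on GRCm38.

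The gene lists (43) and the libraries compared were chosen with earlier results of these data known. Named genes were the 12 higher and 12 lower with the smallest p, the 6 largest and 6 smallest differences at p under 0.05, up to 4 members of each list by p, and the 5 largest and 5 smallest differences called between CAC and NCAC, leaving out clone and pseudogene names. Other genes named, such as the members below the filter, Cwc22, Ttr, Sostdc1, the T cell and melanoma genes and the tissue markers, were chosen after their values were seen. Some genes that the rule gives are not reported here. Alternatives covered the pseudocount, the filter, the scaling, sample weights, covariates, the groups in the fit and each library left out.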

Additional observations from a re-analysis of the deposited data

Results flagged for a closer look

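Of 274 sets of 5 libraries examined at 6 wk, 17 (6.2%) held a library that stood apart from the other 4, and chance flags about 1 in 20 groups. Among single genes, Grb14 was at 5.79 TPM in mock replicate 5, with the next at 5.24 TPM, and Sorbs2 at 10.1 TPM in NCAC replicate 2, with the next at 8.83 TPM. Ctcf was at 72.3 TPM in mock replicate 2 and Slmap at 42.8 TPM in mock replicate 4, each below the rest of mock. Zfp68 was at 29.9 TPM in NCAC replicate 5, below the other NCAC libraries. Nepro was at 5.93 TPM in mock replicate 1, above the rest, and Gkn3 at 5.65 TPM in the same library, below the rest. Col2a1 was highest at 2.82 TPM in CAC replicate 4 and at 4.33 TPM in NCAC replicate 3.

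Among the mean log2 levels of the lists, that of interferon and MHC class I genes was 3.57 in NCAC replicate 5, with the next library at 2.91. The cholesterol list was lowest at 5 in NCAC replicate 4. The thyroid hormone list, which includes Ttr, was lowest at 5.68 in NCAC replicate 3 and at 5.53 in mock replicate 4, the libraries low in Ttr. The proliferation list was highest at 2.59 in mock replicate 5, and the interneuron and unipolar brush cell list lowest at 5.2 in mock replicate 2. The lymphocyte list was highest at 3.16 in mock replicate 1, with the next at 1.15, and the endothelium list highest at 4.78 in NCAC replicate 2.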

How the results depend on the processing

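The count of 0 genes called by limma between NCAC and mock (1202 at an unadjusted p under 0.05) was also 0 under every alternative run but 1: without NCAC replicates 2, 4 and 5, an alternative chosen after seeing the data, 2 genes were called. Leaving out each library gave 0 to 0. The count at an unadjusted p under 0.05 was 1810 without a filter, 2000 with sample weights, 666 with the brainstem covariate and 499 without NCAC replicates 2, 4 and 5, and 525 to 1558 with each library left out. The contrast of 6 wk with other weeks called 0 genes throughout (1265 at an unadjusted p under 0.05 by limma). Between CAC and NCAC 1361 genes were called, against 2624 with sample weights, 348 with the compared groups alone, 96 with a limit of 1.5-fold and 247 to 1690 with each library left out. With the replicate number as a block 0 genes were called between NCAC and mock (1206 at an unadjusted p under 0.05) and 1242 between CAC and NCAC, and the block changed no other count by over 1.5 times. Same-numbered NCAC and mock libraries' deviations from their group means correlated weakly, at 0.03, -0.09, 0.05, 0.08 and -0.11. For NCAC replicates 3 and 4 the mock library of the same number was the most correlated. These values do not settle whether the numbers pair the libraries. The difference of Ttr lay between -1.31 and 1.17 with each library left out, and turned negative at -0.06, -0.32, -0.20 and -0.28 without NCAC replicates 1, 2, 4 and 5 in turn. The mitochondrial share differed by -0.00561 to 0.632 percentage points. Of 77 genes named between NCAC and mock, 6 changed sign in 7 of 1617 values. Without NCAC replicates 2, 4 and 5, Prph was at -0.0375, Slc22a4 at 0.0508 and Slc17a6 at -0.0691, and with the brainstem covariate Slc17a6 was at -0.10 and Slc6a11 at -0.0037. The cause was not tested. The covariate also gave -0.11 for Sncg and -0.12 for Th, but both are among the 6 genes that form it, so their difference shrinks by construction and shows nothing. Prph is also among these 6 genes, whose mean picked out NCAC replicates 2, 4 and 5. Its change without those libraries likewise follows by construction. TPM holds no depth, so scarce transcripts such as Lenep carry an unknown counting error.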
